A study of Mus musculus with 17 samples.

Results

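Antigen presentation by major histocompatibility complex (MHC) class I was followed through 8 genes in beta and alpha cells of mice treated with streptozotocin (STZ), a toxin that enters beta cells through their glucose transporter. The 8 genes, B2m, H2-K1, H2-D1, Tap1, Tap2, Tapbp, Psmb8 and Psmb9, were chosen as the named class I genes of the UMI table, and each of the 8 occurred once among its 40824 genes. Single cells were sorted for red fluorescence from the pancreas of Ngn3-Cre; Rosa-RFP mice, in which Cre is driven by a gene of endocrine progenitors, and were sequenced by a modified STRT-seq protocol that counts molecules by unique molecular identifiers (UMIs). All 17 libraries are labelled with this genotype, although the shared extraction protocol also names Ins1-RFP+ cells and does not say in which libraries. The adult mice were males injected intraperitoneally once, at 2 months of age and fasted overnight, with STZ (200 mg/kg) or, for the 3 control libraries, with citrate buffer. The STZ mice with insulin implants gave 8 libraries, 1 each at day 6, day 30, day 42, month 2, month 5 and month 9 (STZ_D6, STZ_D30, STZ_D42, STZ_M2, STZ_M5, STZ_M9) and 2 at day 12 (STZ_D12). The time of STZ_D6 was read from its label, while the series text gives day 1 beside the same name. Per the labels, the implants of the STZ_M9 mice were discontinuous in the last 2 months. STZ mice at month 2 without implants (STZ_M2_NoIns) gave 2 libraries, and untreated mice at postnatal days 3, 12 and 21 (P3, P12, P21) gave 1, 2 and 1. Unless STZ_M2_NoIns is named, values after STZ and the STZ effect below refer to STZ with implants. Effects of STZ and of the implants cannot be told apart in them.

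Class I molecules show peptides from inside a cell to cytotoxic T cells. Proteins are cut by the proteasome, whose inducible subunits include Psmb8 and Psmb9, the peptides are carried into the endoplasmic reticulum (ER) by the transporter of Tap1 and Tap2, and tapasin (Tapbp) holds the empty class I molecule at that transporter. The heavy chain, here H2-K1 or H2-D1, folds around the peptide and is held stable at the surface by the light chain beta-2-microglobulin (B2m). Interferons raise the genes of this pathway together, and high class I expression on islet cells is a known feature of autoimmune diabetes.

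The members lie on 2 chromosomes of the GRCm38 (mm10) build, with gene spans from GENCODE M21. B2m lies at chr2:122147686-122153083 on the plus strand, and the other 7 lie on chromosome 17. Tapbp spans chr17:33915899-33929292 (plus), H2-K1 chr17:33996017-34000347 (minus) and H2-D1 chr17:35262730-35267499 (plus), so that the heavy chain genes stand 1.27 Mb apart. Psmb9 (chr17:34181987-34187764, minus), Tap1 (chr17:34187553-34197225, plus), Psmb8 (chr17:34197721-34201454, plus) and Tap2 (chr17:34203527-34216321, plus) share one stretch of 34.3 kb. Psmb9 and Tap1 overlap on opposite strands, B2m overlaps Patl2, and Tapbp, Tap2 and Psmb8 overlap annotated antisense or neighbouring genes, so without a stated strand of counting their reads cannot be told apart from those of these genes. H2-K1 and H2-D1 belong to a family of similar heavy chain genes, whose transcripts were not compared here, and their counts are uncertain to the extent that reads were split among them. RefSeq promoters (GRCm38.p6) were matched for 7 of the 8 members. The windows of B2m (chr2:122147437-122147685, plus strand) and H2-K1 (chr17:34000349-34000597, minus strand), the 249 bases before the gene start, are shown because the results turn on the light chain and its heavy chains, whose windows hold the same 3 motifs. Capitals mark, in order along B2m, matches to AANNGAAA (an interferon-response type motif), GGGNNTTNC (an NF-kB type motif) and CCAAT, searched on both strands, and the matches do not overlap.
B2m: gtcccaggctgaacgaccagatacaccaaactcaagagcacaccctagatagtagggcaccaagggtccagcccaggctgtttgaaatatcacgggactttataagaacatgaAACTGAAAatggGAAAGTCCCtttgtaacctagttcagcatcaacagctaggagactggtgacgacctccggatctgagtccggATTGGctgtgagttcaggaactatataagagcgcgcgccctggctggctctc
H2-K1: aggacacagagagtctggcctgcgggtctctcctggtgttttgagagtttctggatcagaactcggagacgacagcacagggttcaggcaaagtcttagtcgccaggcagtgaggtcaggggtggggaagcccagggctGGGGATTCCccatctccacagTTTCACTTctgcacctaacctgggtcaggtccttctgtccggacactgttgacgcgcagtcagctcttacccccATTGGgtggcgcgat
Of 32851 promoters of the same length, 21.3% held AANNGAAA, 12.9% held GGGNNTTNC and 33.8% held CCAAT. B2m, H2-K1 and H2-D1 each held all 3 motifs, while no match to AANNGAAA or GGGNNTTNC was found in the windows of Tap1, Tapbp, Psmb8 and Psmb9. Unlike the 2 windows shown, those of Tap1, Tapbp, Psmb8, Psmb9 and H2-D1 overlap annotated exons. The windows of H2-D1, Tapbp, Psmb8 and Psmb9 lie inside the gene spans given above. The missing matches therefore describe these windows, not the bases before the gene start. The windows of H2-K1 and H2-D1 were alike at 166 of 189 aligned bases (87.8%). A match is a description of these letters, not a site.

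Cells were typed from the authors' values per 100000 UMIs as beta or alpha by the larger of the hormone genes Ins2 and Gcg, which also had to exceed Sst, Ppy and Prss2 of the same cell and reach 2000. This gave 1018 beta and 606 alpha cells of 2999, and 1375 cells stayed untyped, of which 700 had Prss2 highest, 265 Sst, 235 Ppy, and 175 reached 2000 in none. The larger of Ins2 and Gcg alone gave 2019 beta and 975 alpha cells. Under that bare rule 0 of the 8 members passed the test in any comparison below and the B2m difference of beta cells after STZ had the opposite sign (log2 fold change 1.12, adjusted p = 0.333), so every call reported here belongs to the stricter typing. Markers followed the names of the types: Ins1 stood at 68119 CPM (UMIs of a gene scaled to a total of 1e+06) in beta and 4098 in alpha cells, and the alpha cell factor Irx2 at 4.64 and 149, while Mafa, a beta cell factor, had 0 UMIs in these cells. Library totals ran from 1420536 to 26298456 UMIs and the median cell had 61193. Leukocyte marker genes, other than Cd79a and Fcer1g, summed to 2910 CPM in alpha cells of STZ_D12 replicate 1, where 10 of 17 cells held at least 5 such UMIs. They summed to 137 CPM in alpha cells of STZ_D42 (10 of 46 cells). In beta cells they summed to 155 CPM in STZ_D12 replicate 1 (9 of 15 cells), 85.9 in control replicate 1 (5 of 217) and 107 in P3 (4 of 145). Elsewhere these sums ran to at most 36.4 CPM. Cd79a and Fcer1g, the highest of the list in beta cells, were left out of these sums and of the count per cell. In beta cells Cd79a ran from 20.4 to 103 CPM in controls and 10.4 to 55.9 after STZ with implants, and Fcer1g from 19.8 to 37.0 and 3.1 to 16.0. Fcer1g was thus lower in all 8 STZ libraries than in any control, beside 2.54% of all genes tested. In alpha cells Fcer1g reached 139 CPM, in STZ_D12 replicate 1, and Cd79a 16.0, in STZ_D42. The part of leukocyte RNA in the members' values was not tested beyond the removal of cells reported below. Only libraries with at least 5 cells of a type entered a comparison, which left 2 controls for alpha cells and 1 library of 8 beta cells for STZ_M2_NoIns. Levels are CPM of summed UMIs, scaled by TMM (a scaling that balances the bulk of genes), and are not per gene length, so they are compared between samples and not between genes.

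In beta cells, the heavy chain H2-D1 rose after STZ with implants, B2m stood lower without passing the test, and the other 6 members did not pass it. B2m stood at 167, 171 and 98.3 CPM in control replicates 1 to 3. It stood at 114 in STZ_D6, 102 and 102 in STZ_D12, 80.6 in STZ_D30, 45.5 in STZ_D42, 74.6 in STZ_M2, 73.9 in STZ_M5 and 48.7 in STZ_M9. Thus 5 of the 8 STZ libraries lay below the lowest control and 0 above the highest, and the groups overlapped through control replicate 3. The log2 fold change of B2m was -0.83 ± 0.25 (SE, 8 libraries against 3; 0.564-fold), with an adjusted p of 0.0957 by edgeR's quasi-likelihood test. It passed only when genes of low count were kept in the test (adjusted p = 0.0171). The marker sums of other cell types in beta cells also differed between the arms: the genes of PP cells summed to 2612 to 4330 CPM in controls and 6862 to 23641 after STZ, and those of acinar cells to 7083 to 21385 and 13668 to 60740. Their part in the members' values was not tested. With beta and alpha cells restricted to those under 1000 per 100000 of each other hormone and of Prss2, the B2m difference was -1.01 (adjusted p = 0.0766).

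**Figure D1:**
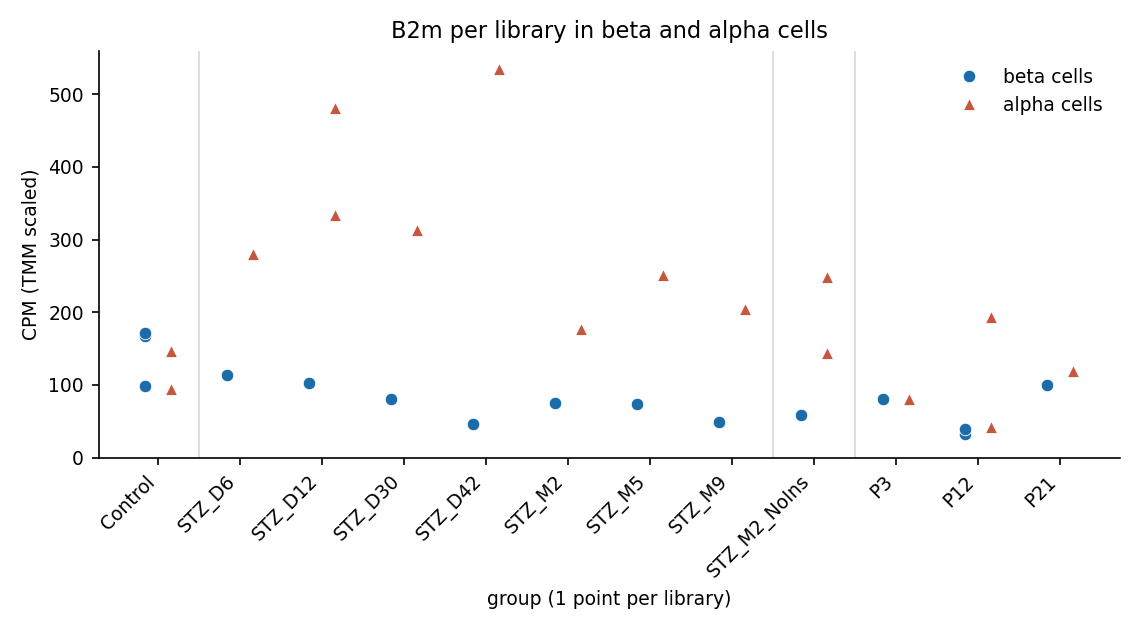
B2m level in CPM (TMM scaled, linear axis from 0) by group, 1 point per library and cell type, circles for beta and triangles for alpha cells. Alpha cells of the 8 STZ libraries with implants sit between 177 and 535, above both controls (94.1 and 147), while beta cells of the same libraries sit between 45.5 and 114.

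The heavy chains did not follow the light chain. H2-D1 stood at 338, 270 and 362 CPM in the control beta cells. After STZ its lowest, median and highest libraries were 329 (STZ_M2), 562 and 617 (STZ_M5), and 7 of 8 lay above the highest control. H2-D1 rose by a log2 fold change of 0.74 ± 0.19 (SE; 1.66-fold), with an adjusted p of 0.0424 by edgeR's quasi-likelihood test over 10586 genes. It was the only 1 of the 8 members called, beside 2.93% of all genes tested in this comparison. The call is a narrow one. It was lost when any 1 library other than STZ_D30 or STZ_M2 was left out (log2 fold change 0.60 to 0.81). These were the 3 controls (adjusted p 0.108 to 0.305), STZ_D6 (0.0518), both STZ_D12 libraries (0.0603 and 0.0667), STZ_D42 (0.0777), STZ_M5 (0.0602) and STZ_M9 (0.0667), by edgeR. It was also lost without cells that held at least 5 leukocyte marker UMIs (0.68, adjusted p = 0.097) and by the log-linear test of limma (0.72, adjusted p = 0.0507). The call did not hold either with library totals in place of TMM, with a block for replicate number, under the bare typing rule or without the highest cell of each member. DESeq2 kept it (0.74, adjusted p = 0.0027). H2-K1 stood at 434, 412 and 490 CPM in controls and at 366 (STZ_D30), 559 and 694 (STZ_D12 replicate 2) as the lowest, median and highest STZ library. Of these, 6 of 8 lay above the highest control and 1 below the lowest, and H2-K1 did not pass the test (0.33 ± 0.19, adjusted p = 0.528 by edgeR).

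**Figure D2:**
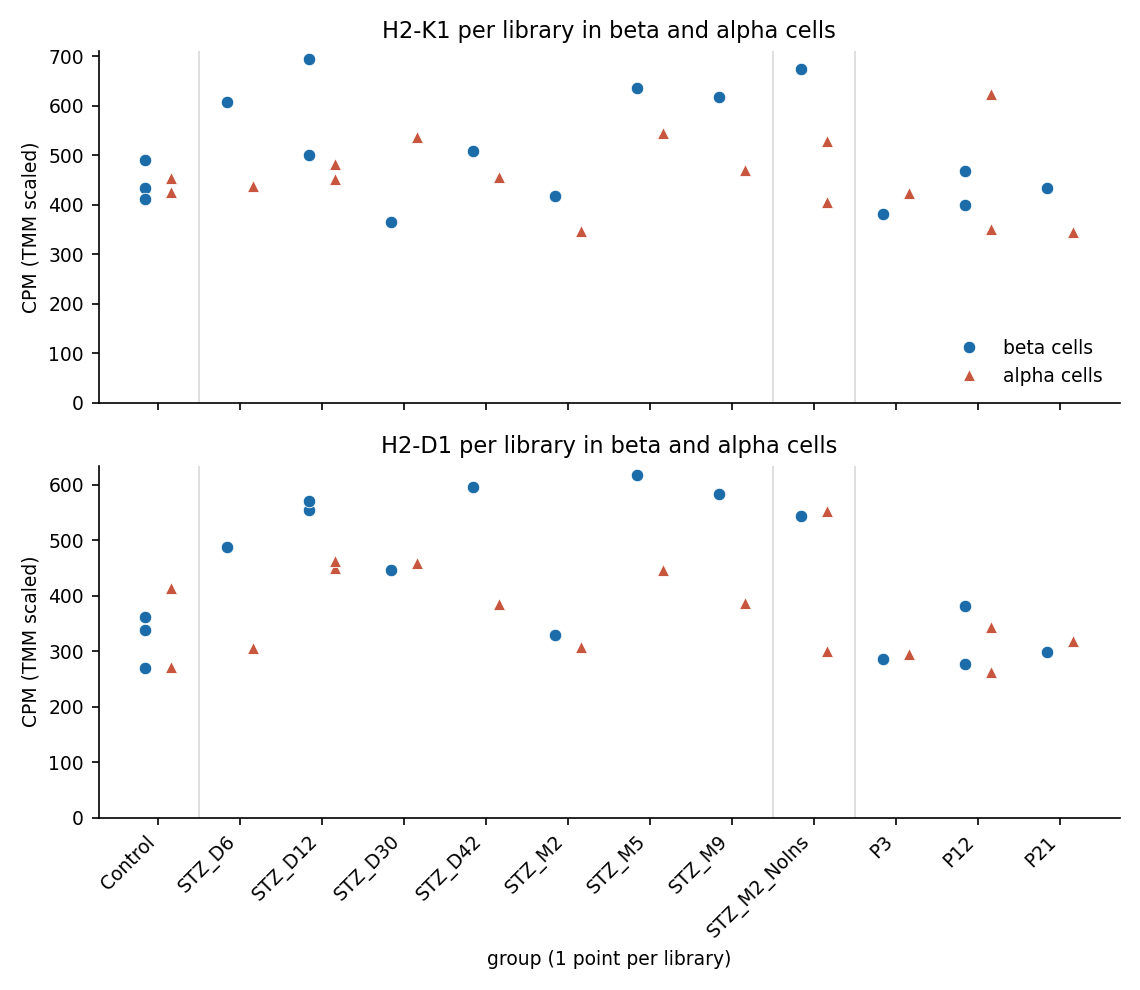
Levels of the heavy chain genes H2-K1 (top) and H2-D1 (bottom) in CPM (TMM scaled, linear axes from 0), 1 point per library, circles for beta and triangles for alpha cells. In beta cells 7 of 8 STZ libraries lie above the highest control for H2-D1 and 6 of 8 for H2-K1.

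B2m was also set against its partner chains. For every 100 UMIs of H2-K1 and H2-D1 together, beta cells held 11.5 to 25.1 UMIs of B2m in the 3 controls and 4.05 to 10.4 in the 8 STZ libraries with implants. The ratio needs no scaling between libraries. It was not tested and is given as a description. These groups did not overlap, but the lowest control lay close to the highest STZ library, and 10.8% of the 10586 genes, set against the same heavy chain UMIs, likewise had all STZ libraries below all controls. In either direction 11.4% of genes did not overlap in such a ratio, and 5.46% in level. STZ_M2_NoIns held 4.80 and the postnatal libraries 3.87 to 13.7.

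**Figure D3:**
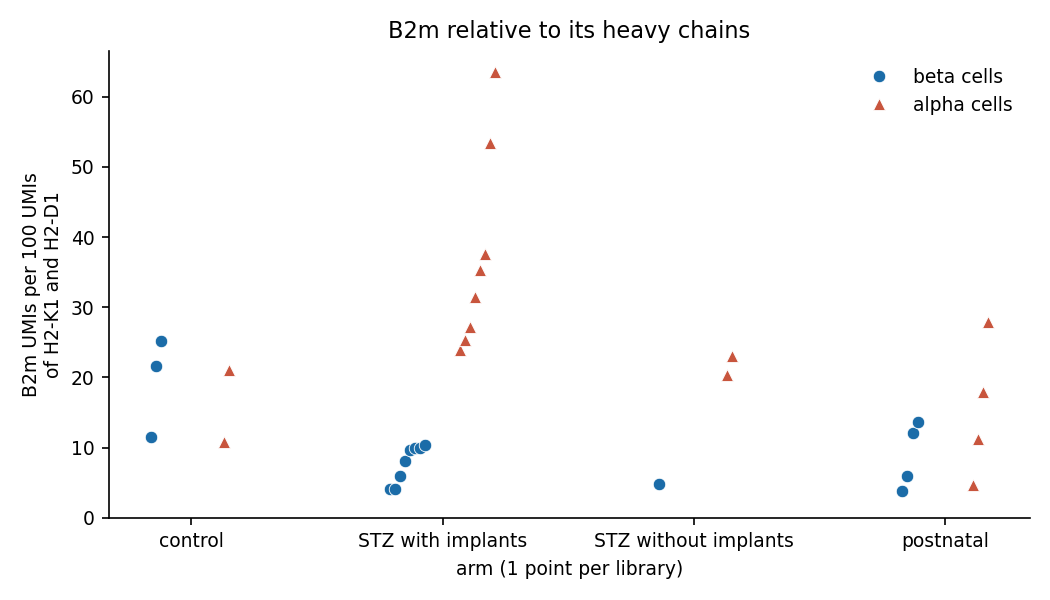
UMIs of B2m per 100 UMIs of H2-K1 and H2-D1 (linear axis from 0) by arm, 1 point per library, circles for beta and triangles for alpha cells. Beta cells of the STZ libraries with implants lie below the controls (4.05 to 10.4 against 11.5 to 25.1), and alpha cells of these libraries lie above them (23.9 to 63.5 against 10.8 and 21.1).

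The genes of peptide transport and loading differed little between arms in beta cells. Tapbp, the tapasin gene, stood at 134, 104 and 171 CPM in controls and between 103 and 176 after STZ (0.10 ± 0.19, adjusted p = 0.927). Tap2 stood at 21.3, 13.6 and 7.1 CPM in controls and between 8.6 and 25.7 after STZ (0.22 ± 0.36, adjusted p = 0.918). Tap1 stood at 8.3, 6.8 and 8.7 CPM in controls, and STZ libraries lay on both sides, 4 above and 4 below, from 20.5 (STZ_D6) to 0 UMIs in STZ_M2, where 3 UMIs would be 5.37 CPM (0.36 ± 0.62, adjusted p = 0.919, all by edgeR). Psmb8 and Psmb9 encode inducible subunits of the proteasome. Psmb8 stood at 20.1, 19.6 and 15.7 CPM in controls and between 12.4 (STZ_M2) and 48.5 (STZ_M9) after STZ, with 6 of 8 above the highest control (0.53 ± 0.33, adjusted p = 0.578). Psmb9 stood at 13.7 and 11.3 CPM in control replicates 1 and 2, had 0 UMIs in the 21 cells of replicate 3 (3 UMIs would be 2.18 CPM), and ran from 1.6 (STZ_M5) to 37.3 (STZ_M2) after STZ (0.68 ± 0.70, adjusted p = 0.824, by edgeR). Of the 8 members, 7 had a positive log2 fold change and their median was 0.35, against 0.01 over all genes.

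**Figure D4:**
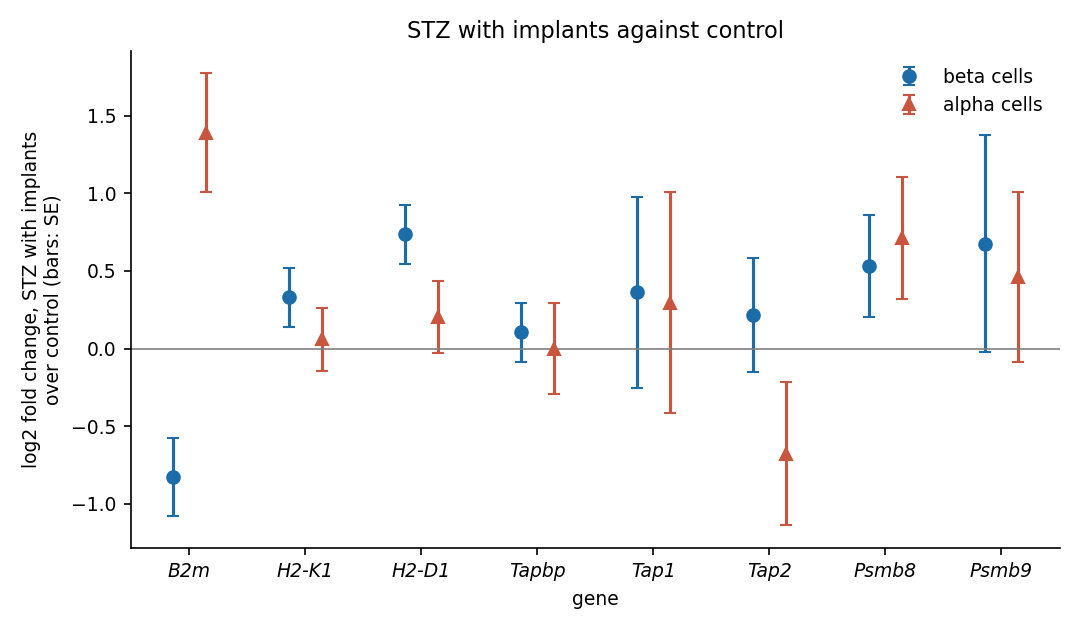
Log2 fold change of each member between the STZ libraries with implants and controls (bars, SE from the quasi-likelihood test), circles for beta cells (8 libraries against 3) and triangles for alpha cells (8 against 2). B2m points down in beta cells (-0.83) and up in alpha cells (1.39), and H2-D1 in beta cells (0.74) is the only value past the adjusted threshold of 0.05.

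The other genes of the pathway are given by list, beside the 2.93% of all genes called in this comparison. Among other heavy chain genes 0 of 7 tested were called, with H2-T23, a non-classical heavy chain, at 0.75 ± 0.30 (adjusted p = 0.253) and H2-Q2 at -0.22 ± 0.15 (0.654). Among ER genes of peptide loading and trimming 0 of 7 were called, with the trimming peptidase Erap1 at 0.77 ± 0.29 (0.201) and the tapasin relative Tapbpl at 0.48 ± 0.23 (0.391). Psmb10, the third inducible subunit, stood at 0.63 ± 0.35 (0.503). The inducible list gave 0 of 6 calls and the constitutive catalytic subunits 0 of 3, at 0.14 (Psmb5), 0.38 (Psmb6) and 0.43 (Psmb7). The other proteasome subunits gave 0 of 28, with a median of 0.25 and 25 of 28 positive. Among regulators 1 of 13 was called: Nfkb1, which encodes an NF-kB subunit, fell, with 53.9, 49.4 and 61.3 CPM in controls and 14.4 to 30.1 after STZ (-1.22 ± 0.24, adjusted p = 0.0075). Irf1, an interferon-induced activator of class I genes, stood at 0.91 ± 0.33 (0.187). Nlrc5, the class I transactivator, was too low to test, at 2.3 CPM or less in every library. The interferon receptors and their kinases gave 0 of 7 calls. Among interferon-stimulated genes 1 of 18 was called: Lgals3bp, a secreted glycoprotein, rose, from 207, 241 and 236 CPM in controls to between 253 (STZ_M2) and 811 (STZ_M9) after STZ (1.38 ± 0.25, adjusted p = 0.0049 by edgeR). All 8 STZ libraries lay above the controls in Lgals3bp and below them in Nfkb1, beside 2.92% and 2.54% of all genes. Both calls were lost without control replicate 1 (adjusted p = 0.0522 for Lgals3bp and 0.0519 for Nfkb1, by edgeR).

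Each time point was also set against the same 3 controls in 1 fit of all 12 groups, where a group of 1 library was assumed to vary like the replicated groups and the comparisons share their controls. B2m was the only member called in any of them. In beta cells it fell at STZ_M9 (-1.59 ± 0.36, adjusted p = 0.035), beside 1.46% of 13788 genes. The other log2 fold changes of B2m were -0.37 at STZ_D6, -0.53 at STZ_D12, -0.87 at STZ_D30, -1.69 at STZ_D42 (adjusted p = 0.0715), -0.98 at STZ_M2, -0.99 at STZ_M5 and -1.33 in STZ_M2_NoIns (0.0993), all negative and none called, beside 0.348%, 1.44%, 0.5%, 0.631%, 0.849%, 0.841% and 1.68% of genes. In STZ_M2_NoIns 58.8% of the 34 B2m UMIs of beta cells came from 1 cell. Among the STZ libraries with implants this share reached 52.8%, and STZ_M2 held 36 B2m UMIs. The STZ_M9 call was lost without control replicate 1 (-1.48, adjusted p = 0.0869), control replicate 2 (-1.46, 0.112), P12 replicate 1 (-1.59, 0.0602) or P12 replicate 2 (-1.59, 0.0577), and without cells holding leukocyte marker UMIs (-1.45, 0.0578, by edgeR). Along the 8 STZ libraries B2m had a slope of -0.20 ± 0.06 per doubling of days (unadjusted p = 0.0053, adjusted p = 1.0), and 0 of 9947 genes (0%) were called by edgeR, 318 at an unadjusted p under 0.05, 14 by DESeq2 and 0 by limma. The slope took STZ_D6 as day 6 and was -0.20 without that library, -0.18 per rank of time and -0.50 under the bare typing rule. At month 2, beta cells without against with implants gave 0 of 8 members called beside 0.0653% of genes, with B2m at -0.35 ± 0.50 (adjusted p = 0.817) and H2-D1 at 544 and 329 CPM in 1 library each, of 8 and 9 cells. Lgals3bp was called in 6 of these comparisons, all upward (STZ_D12, STZ_D30, STZ_D42, STZ_M5, STZ_M9 and STZ_M2_NoIns, at 1.29 to 1.85). Single calls in the lists were Psmb10 at STZ_M2 (1.82 ± 0.41, adjusted p = 0.0439), H2-T23 (1.91, 0.0312) and the RNA sensor gene Ddx58 (2.54, 0.0371) in STZ_M2_NoIns, and Nfkb1 at STZ_M9 (-1.92, 0.0428). Each of these 4 calls was lost without control replicate 1 and without control replicate 2 (adjusted p 0.0683 to 0.118 by edgeR). Psmb10 was also lost without P12 replicate 1 (0.0503) and Nfkb1 without control replicate 3 (0.0507). Lgals3bp at STZ_D30 was lost without any 1 of the controls or P12 replicate 1 (0.0528 to 0.0941).

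In young beta cells B2m was lowest at P12 and the heavy chains stood near adult levels. B2m stood at 80.4 CPM at P3, 32.9 and 40.0 at P12 and 100.4 at P21, against 98.3 to 171 in adult controls, so both P12 libraries lay below every control and P21 lay within their range. B2m fell at P12 (-2.01 ± 0.28, 0.248-fold, adjusted p = 0.0006 by edgeR), the only 1 of the 8 members called there, beside 1.97% of genes. This call held without any 1 of the 7 replicated libraries (-2.21 to -1.87) and was lost by limma (-1.95, adjusted p = 0.0564). At P3 (-0.87, adjusted p = 0.270) and P21 (-0.55, 1.0) 0 of 8 members were called, beside 1.65% and 0.0653% of genes. In P3, 59.0% of the B2m UMIs of beta cells came from 1 cell. H2-K1 stood at 381 to 468 CPM and H2-D1 at 276 to 382 over the 4 postnatal libraries, against 412 to 490 and 270 to 362 in controls. Taken as 1 arm of 4, the postnatal libraries gave 0 of 8 members called (0.0716% of 12566 genes), with B2m at -1.18 ± 0.35 (adjusted p = 0.224 by edgeR). The lists gave further calls at P12: H2-T22, a non-classical heavy chain, fell (-1.89 ± 0.46, adjusted p = 0.04), and the proteasome subunit Psmb2 rose (0.95 ± 0.22, 0.0317). Also, 3 interferon-stimulated genes fell, Lgals3bp (-1.10 ± 0.23, 0.0163), Ifi27 (-1.61 ± 0.28, 0.0037) and Ifitm3 (-5.57 ± 0.99, 0.0045, all by edgeR). Ifitm3 had 1 UMI in each P12 library, against 8 UMIs (6.3 CPM) to 354 UMIs (24.9 CPM) in controls of unlike depth. Without P12 replicate 2 all 5 calls were lost (adjusted p 0.115 to 0.317 by edgeR), and without P12 replicate 1 all but that of Ifi27 (0.127 to 0.386). H2-T22 was also lost without control replicate 2 (-2.09, 0.0592) or 3 (-1.52, 0.0778) and in 5 of 12 other settings. Psmb2 was also lost without control replicate 1 (0.91, 0.0863) or 2 (0.91, 0.136), and Lgals3bp without control replicate 2 (-1.06, 0.0716). Ifi27 also fell at P3 (-2.21 ± 0.37, 0.0036). The acinar markers fell too at P12, 7 of 7.

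Alpha cells of the same libraries showed the reverse for B2m. Its level was 94.1 and 147 CPM in the 2 controls. It was 280 in STZ_D6, 481 and 333 in STZ_D12, 313 in STZ_D30, 535 in STZ_D42, 177 in STZ_M2, 251 in STZ_M5 and 205 in STZ_M9, and all 8 lay above both controls, as did 1.93% of the 10958 genes (4.13% did not overlap in either direction). The difference was 1.39 ± 0.38 (SE; 2.62-fold, 8 libraries against 2; unadjusted p = 0.0019) but did not pass the adjustment (adjusted p = 0.999). In that comparison 0 of 8 members and 0 of 10958 genes (0%) were called by edgeR, 464 at an unadjusted p under 0.05, 2 by DESeq2 and 0 by limma. Marker sums of other cell types in these alpha cells did not all move with B2m. The 3 delta cell markers summed to 1661 and 1882 CPM in controls and 2135 to 7625 after STZ, with no overlap. The other sums overlapped. The 8 beta cell markers summed to 17790 and 28921 in controls and to 2931 to 31590 (median 6105) after STZ. The PP markers summed to 29247 and 30162 and to 13922 to 58934, and the acinar markers to 3166 and 42859 and to 8499 to 54140. Their part in the B2m values was not tested. The highest B2m levels were in the libraries with the most leukocyte marker UMIs. Without cells holding at least 5 such UMIs the difference was 1.00, without STZ_D12 replicate 1 it was 1.3 and without STZ_D42 it was 1.24. In STZ_D12 replicate 1 51.2% of the B2m UMIs, and in STZ_D42 34.5%, came from 1 cell. STZ_M2_NoIns stood at 249 and 144, the higher above both controls and the lower between them. For every 100 heavy chain UMIs alpha cells held 10.8 and 21.1 UMIs of B2m in controls, 23.9 to 63.5 after STZ with implants and 20.4 and 23 without implants. With implants the ratio did not overlap with controls, beside 3.75% of genes set against the same UMIs in either direction and 1.21% upward. The heavy chains did not move with B2m: H2-K1 stood at 454 and 426 CPM in controls and 347 to 544 after STZ (0.06 ± 0.20, adjusted p = 0.999), and H2-D1 at 414 and 271 against 306 to 463 (0.20 ± 0.23, adjusted p = 0.999, by edgeR). The other 5 members had log2 fold changes between -0.68 (Tap2) and 0.71 (Psmb8, above both controls in 7 of 8 libraries). None of the lists held a call, and the 24 interferon-stimulated genes tested had a median of 0.54 against 0.01 over all genes, with Ifih1, an RNA sensor, at -0.98 and the interferon-induced Xaf1 at 2.92 the smallest p-values. Postnatal against adult alpha cells gave 0 of 8 members called beside 0.086% of genes, with B2m at 80.5, 41.8, 194 and 119 CPM in P3, the 2 P12 libraries and P21 (-0.15 ± 0.46, adjusted p = 0.999). Each P12 library held 5 alpha cells.

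The opposite movement of B2m in the 2 cell types was itself tested in a fit with a term for each library, over the 10 libraries of controls and STZ with implants that held both types. The effect of STZ with implants on B2m was higher in alpha than in beta cells by 2.44 ± 0.41 on the log2 scale (SE; 5.43-fold, adjusted p = 0.0192 by edgeR). It was the only 1 of the 8 members called, beside 0.2% of 12025 genes. Among leukocyte markers 3 of 10 tested were called in the same direction, and without the cells that held at least 5 of their UMIs the difference was 2.08 (adjusted p = 0.0047). The call rests on both controls, since it was lost without control replicate 1 (2.15) or control replicate 2 (2.77), each of which left 1 control. It was also lost under the bare typing rule (1.58, adjusted p = 0.294 by edgeR). In the most restricted cells the difference was 2.40. Control replicate 1 had 0 such alpha cells, so that fit held control replicate 2 alone and cannot show whether the call depends on this typing. H2-D1 had a difference of the other sign (-0.57 ± 0.25, unadjusted p = 0.0315, adjusted p = 0.708), as had H2-K1 (-0.30 ± 0.26, 0.960). The difference between alpha cells and beta cells within a library shows the same values. Alpha cells held 0.537 and 0.754 times the B2m level of beta cells in the controls, and 2.08 to 13.1 times (median 3.40) in the 8 STZ libraries. The ratio was 2.14 in STZ_M2_NoIns, where 58.8% of the B2m UMIs of beta cells came from 1 cell, and 0.987 to 5.80 in postnatal libraries.

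**Figure D5:**
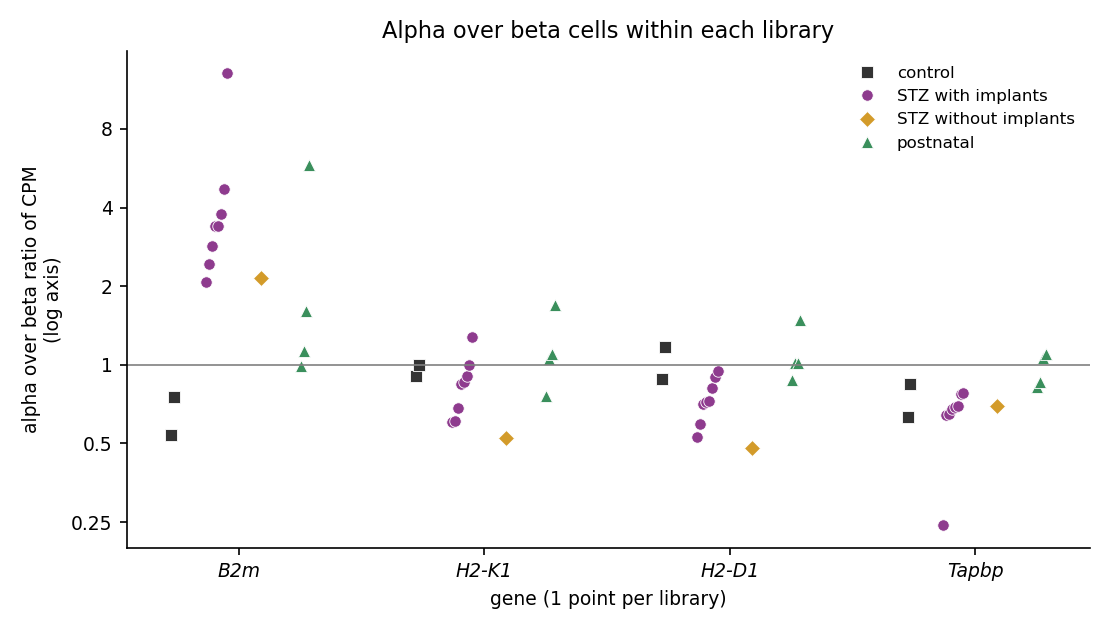
Ratio of the CPM level in alpha cells to that in beta cells of the same library (log axis, line at 1) for B2m, H2-K1, H2-D1 and Tapbp, 1 point per library, by arm. For B2m the 8 STZ libraries lie between 2.08 and 13.1 and the controls at 0.537 and 0.754, while Tapbp is lower in alpha cells in 13 of 15 libraries.

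Averaged over all 15 libraries with both types, alpha and beta cells differed in 4 of the 8 members, beside 34.1% of 9779 genes called in this comparison. B2m was higher in alpha cells (1.15 ± 0.24, 2.22-fold, adjusted p = 0.0006), in 12 of 15 libraries and under every removal of 1 library (1.00 to 1.3), but stood at -0.11 under the bare typing rule. Tapbp was lower (-0.54 ± 0.12, adjusted p = 0.0008, lower in 13 of 15), as were H2-D1 (-0.36 ± 0.10, 0.0065) and H2-K1 (-0.26 ± 0.10, 0.0373), each in 11 of 15. These averages mix arms that differed. B2m was higher in alpha cells in 8 of 8 STZ libraries with implants, 0 of 2 controls and 3 of 4 postnatal libraries. In the same order, these counts were 0, 1 and 3 for H2-D1, 1, 0 and 3 for H2-K1, and 0, 0 and 2 for Tapbp. The H2-K1 call held only without control replicate 1 or 2, STZ_D12 replicate 1, STZ_D30 or P12 replicate 1, and was lost when any 1 of the other 10 libraries was left out (-0.26 to -0.21, adjusted p up to 0.0935, without STZ_M2_NoIns). It was also lost with library totals in place of TMM (-0.18, adjusted p = 0.213) and with thinned cells (-0.18, 0.162, by edgeR). Psmb8 (0.31 ± 0.24), Psmb9 (0.24 ± 0.30), Tap1 (0.19 ± 0.45) and Tap2 (-0.02 ± 0.22) were not called. The ER genes of folding and loading went the way of Tapbp: 6 of 7 were lower in alpha cells, among them the folding sensor Uggt1 (-1.48 ± 0.14), the disulfide isomerase Pdia3 (-1.13 ± 0.10), Tapbpl (-0.99 ± 0.18) and the chaperone calreticulin, Calr (-0.92 ± 0.08), with a list median of -0.92 against -0.01 over all genes. These chaperones serve secreted proteins in general. Among other heavy chains H2-Q7 (0.96 ± 0.35) and H2-T23 (0.64 ± 0.17) were higher and H2-M3 (-1.01 ± 0.27) lower, of 7 tested. The H2-Q7 call held only without control replicate 2, STZ_D12 replicate 2, P3, either P12 library or STZ_M2_NoIns, and was lost when any 1 of the other 9 libraries was left out (0.83 to 0.98, adjusted p 0.0512 to 0.0893 by edgeR). It was also lost in 4 of 8 other settings, down to 0.28 under the bare rule (adjusted p = 0.469). The proteasome activator Psme1 was higher (0.56 ± 0.13) and Psme4 lower (-0.65 ± 0.17). Psmb10 stood at 0.25 ± 0.23, Psmb5, Psmb6 and Psmb7 at -0.18, -0.17 and -0.20, none of them called, and 11 of 28 other subunits were lower, led by Psmc2 (-0.57) and Psmb2 (-0.56). Receptors of interferon gamma were lower, Ifngr1 by -0.86 ± 0.26 and Ifngr2 by -0.72 ± 0.22, as was the kinase Jak1 (-0.48 ± 0.14), 3 of 7. Irf1 (-0.09) was not called, while Socs3, an inhibitor of cytokine signals, was higher (1.72 ± 0.33), as was Stat3 (0.36 ± 0.11), 2 of 13 regulators. Of 17 interferon-stimulated genes 4 were higher, Ifih1 (2.56), Parp14 (1.41), Bst2 (1.02) and Lgals3bp (0.50), all by edgeR at an adjusted p under 0.05.

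The members differed in how many cells held them. With each cell thinned to 20000 UMIs, at least 1 UMI of H2-K1 was seen in 98.5% to 100% of control and 96.0% to 100% of STZ beta cells, by library, while Psmb8 was seen in 14.3% to 21.6% and 11.1% to 45.8%. B2m was seen in 47.6% to 75.0% of control and 39.7% to 84.6% of STZ beta cells, and in 27.4% to 49.1% of postnatal ones. In alpha cells B2m was seen in 56.7% and 71.4% of control cells and in 69.2% to 93.8% of STZ cells, with library medians of 1 to 2 and 2 to 5 UMIs per cell. Unthinned, these shares were 58.1% to 85.7% and 78.6% to 98.0%. Nearly all nucleated cells express class I genes, so no cell type served as a negative. Over 14 libraries with at least 10 beta cells, the mean log2 CPM of the 8 members had among its most alike genes, by Spearman's rho over 13780 genes, Uox (0.90), Serpinb9 (0.88), Dhx58 (0.86) and 3110007F17Rik (0.85), which is a description over sums that share libraries and depth.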

How the data were processed

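Gene-by-cell UMI counts of 17 libraries were analysed as deposited by the authors, together with their table of signal values per 100000 UMIs of the cell, which leaves hormone genes out of the total. The submitters' processing notes name the mm10 build and the tools UMI-tools 0.5.0, SAMtools 1.3.1, featureCounts 1.5.3 and TopHat2 2.1.0. The treatment of reads with several matches, the strand of counting and filters on cells are not given in the sources used here. The 6 entries without a gene symbol were kept and are part of the 40824 genes. No doublet caller was run, and 0 cell names were shared between libraries.

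UMIs were summed per library and cell type (at least 5 cells) and tested with edgeR 4.0.16 under R 4.3.3 (TMM, filterByExpr, quasi-likelihood F test, Benjamini-Hochberg adjustment over all genes tested, threshold 0.05). SEs were derived from the F statistic and restate its test. The fits were tested on simulated data. Nothing in the labels says that replicates came from separate animals, so p-values measure only the spread between these samples, which may be technical. Floors of 3 UMIs cover counting error only. CPM is a share of a cell's RNA, so amounts per cell were not measured. A batch number per library and, for 10 libraries, sequencing runs read from raw file names were the batches known.

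The members and lists were chosen with earlier results of these data known. Named beside the members were Psmb5, Psmb6, Psmb7, Psmb10, Nlrc5 and Irf1, and per list up to 4 called genes of largest change or, with none called, the 2 of smallest p; a few genes that these rules name are not reported here. Ifitm3 and Nfkb1 levels were added after their values were seen. Alternatives were DESeq2 1.42.0, limma 3.58.1, other scaling, filters, typing, depth and cells, a replicate block, shared sequencing runs and leaving out each library.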

Additional observations from a re-analysis of the deposited data

Results flagged for a closer look

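Among the members' levels, 32 groups, of 4 or 8 libraries each, were searched for 1 library far from the rest, of which chance alone would give about 1 in 20. The search found Psmb9 in beta cells after STZ with implants, where STZ_M5 had a log2 CPM of 1.00 and the nearest of the other 7 libraries 3.39. The effect of STZ with implants on B2m differed between alpha and beta cells by 2.44 on the log2 scale (adjusted p = 0.0192 by edgeR). B2m was higher in alpha than in beta cells in 8 of 8 STZ libraries with implants and lower in both controls.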

How the results depend on the processing

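Apart from the fits with 1 library left out, the alternatives gave 1131 results of single genes. Of these, 986 kept direction and side of the threshold, 99 lost the threshold, 12 passed it and 34 turned, and the cause was not tested. Some of these alternatives changed the set of libraries. Pure cells, at least 10 cells and shared sequencing runs held fewer, and control replicate 1 had 0 pure alpha cells. The alternatives without cells with leukocyte markers and without the highest cell were chosen after seeing the data. The number of members called in beta cells after STZ (1) was 2 with no low-count filter and 0 to 1 with 1 library left out. It was 0 with library totals, limma, the bare rule, the replicate block, without cells with leukocyte markers and without the highest cell. Over the single groups against control it (2) was 4 by DESeq2, 5 with no low-count filter, 1 with library totals or limma, 0 under the bare rule, 3 in pure cells and 1 to 4 with 1 library left out. For the postnatal arm (0) it was 1 by DESeq2 and with no filter. For alpha against beta cells (4) it was 0 under the bare rule, and for the difference of the STZ effects (1) 0 under the bare rule. In pure cells, or with a control left out, the fit of that difference held 1 control with alpha cells. Genes called in beta cells after STZ numbered 310, and 546 by DESeq2, 484 with no filter, 929 under the bare rule and 75 with the block. Leaving out 1 library gave 115 (control replicate 1), 117 (control replicate 2) and 150 (control replicate 3) to 410 (STZ_M2). The libraries sharing a sequencing run were STZ_D6, STZ_D30, STZ_M2 and control replicate 2, the only control. There H2-D1 stood at 0.68.

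The replicate numbers equal the batch numbers of the labels. The correlations of same-numbered deviations, over control, STZ_D12 and P12 beta cells, were -0.10 to 0.15. So few libraries cannot show whether these numbers pair libraries across groups. With the replicate block, B2m in beta cells after STZ was -0.94 (adjusted p = 0.261) and H2-D1 0.83 (0.197), B2m at STZ_M9 -1.75 (0.0157) and at P12 -2.22 (0.0003), and 3 members' results were called over single groups, all by edgeR.

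Direction turned as follows, in log2 fold change. After STZ in beta cells, limma gave Tap1 -0.34, thinning gave Tap2 -0.011, the block Tap2 -0.23, shared runs Psmb8 -0.17, removal of the highest cell Tapbp -0.012, and the bare rule Tapbp -0.16, Jak1 0.021, Tapbpl -0.28 and B2m 1.12. For B2m of single groups the bare rule gave 0.64 (P21), 1.96 (STZ_D12), 0.81 (STZ_D30), 1.32 (STZ_D42), 0.53 (STZ_D6) and 1.48 (STZ_M2). In alpha cells, H2-K1 after STZ was -0.19 in pure cells and -0.012 without the highest cell, and postnatal B2m 0.26 with library totals and 0.046 with the block. Between alpha and beta cells, Tap2 was 0.0020 by DESeq2, 0.043 with library totals, 0.14 thinned and 0.13 without leukocyte-marker cells, the bare rule gave Irf1 0.040, Psmb10 -1.30, Tap1 -0.024, Bst2 -0.63 and B2m -0.11, pure cells Lgals3bp -0.083 and Tap1 -0.38, and at least 10 cells Irf1 0.010 and Tap1 -0.40. For the difference of the STZ effects the bare rule gave H2-K1 0.069 and H2-D1 0.057. With 1 library left out, values that turned ran, after STZ in beta cells, from -0.077 to 0.28 for Tapbp and -0.061 to 0.63 for Tap2. In alpha cells they ran from -0.069 to 0.55 for H2-D1 after STZ and from -0.54 to 0.19 for postnatal B2m. Between alpha and beta cells they ran from -0.25 to 0.0012 for Irf1, from -0.10 to 0.085 for Tap2 and from -0.035 to 0.37 for Tap1.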

Other observations

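Endocrine cells outside the beta and alpha types were not part of the comparisons, and their B2m levels are given without a test, in CPM of the library total. In cells with Sst highest, the hormone of delta cells, B2m stood at 151 and 161 in 2 controls and at 110 to 401 (median 319) in the 8 STZ libraries with implants. In cells with Ppy highest, the hormone of PP cells, it stood at 86.5 and 143 in controls and at 112 to 529 (median 226) after STZ. The groups overlapped in both classes. In cells with Prss2 highest, a gene of acinar cells, B2m stood at 114 and 224 in controls and 62.8 to 393 (median 117) after STZ. H2-D1 in those Prss2 cells ran from 67.1 to 245 after STZ, below its level in cells with Sst highest (306 to 749). In cells that reached 2000 in none of these 5 genes, B2m stood at 611 and 3567 in 2 controls and at 149 to 5314 (median 1562) in the 6 STZ libraries with implants and at least 5 such cells. In STZ_M5 that level (149) was below the one of alpha cells (231). These cells enter beta or alpha cells only under the bare rule.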
